A study of Mus musculus with 9 samples.

Results

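The alternative activation genes of macrophages examined here were Retnla, Chil3, Chil4, Mrc1, Cd163, Il4ra and Mgl2. They were chosen by name as genes of this state, with earlier results of these data known. Each was represented by its brightest probe over the 9 arrays. All 7 were found among the 19751 genes that could be named on the arrays. The series holds 9 one-color Agilent arrays of lung RNA from male C57BL/6 mice labeled as 10 weeks old, 4 titled control and 5 titled irradiated. The irradiated samples are described as left lung that received radiation once, and the same note on anesthesia with zoletil and rompun stands beside all samples, controls included. No array is labeled with a dose, a lung region or a time, and the study pooled RNA from triplicate experiments of a time point before labeling. The irradiated arrays may therefore differ from each other in time, dose or region. The labels do not say which arrays came from separate animals, so all p-values measure only the spread between these samples, which may be technical.

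Macrophages enter the alternatively activated state when IL-4 or IL-13 binds a receptor that holds the Il4ra chain. The receptor acts through Jak kinases on the transcription factor Stat6, which turns on genes of metabolism, secreted chitinase-like and resistin-like proteins and surface lectins. In the lung the state is known from helminth infection, allergic inflammation, wound repair and fibrosis.

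The irradiated arrays had higher mean levels than the control arrays for 5 of the 7 genes, and none of the 7 passed the test over the whole array without a block. With pairs of arrays that share scan features as a random block Mrc1 passed, as did 7.37% of all probes, and with the same pairs as a fixed block it did not (limma adjusted p = 0.0531). The gene of the macrophage mannose receptor, Mrc1, came closest without the block, being 1.51-fold higher (95% interval 1.27 to 1.80, 4 against 5 arrays), with every irradiated array above every control array. Retnla was 2.50-fold, Chil4 1.98-fold and Chil3 1.60-fold higher on average, and the groups overlapped for each. Il4ra was 1.18-fold higher, the Mgl2 level was 0.939 times that of the control arrays with a direction that turned without irradiated array 1 and within the pairs, and Cd163 was too dim on most irradiated arrays to be measured. In RNA of whole tissue, more or fewer cells of a type and more or less RNA per cell cannot be told apart.

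**Figure D1:**
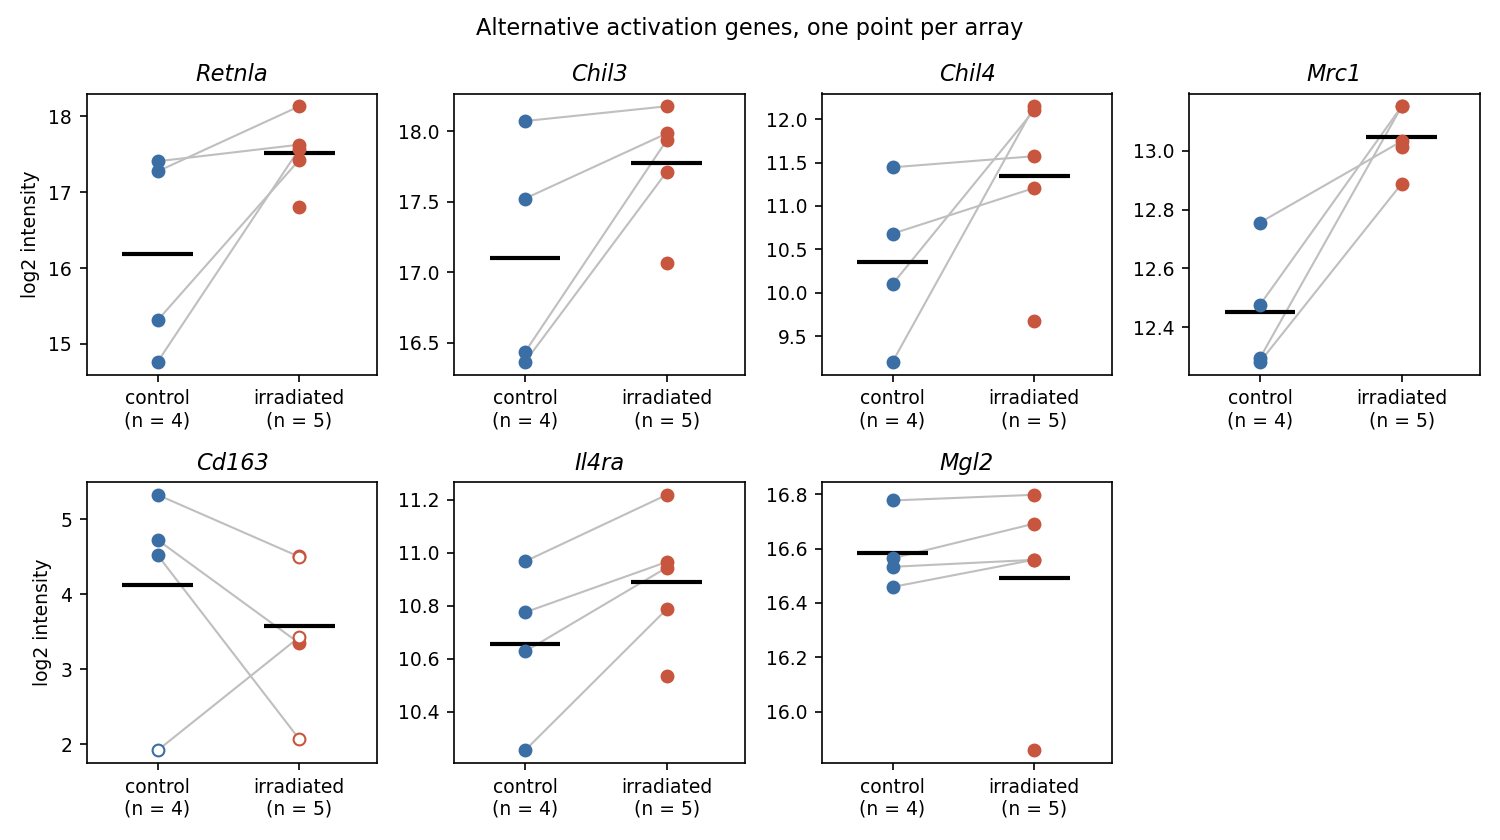
Level of each of the 7 genes on a log2 intensity scale, one point per array (4 control, 5 irradiated), with a bar at the group mean. Grey lines join the 4 pairs of arrays that share scan features, and open points were not well above background. Mrc1 is the gene whose groups are separate, and the unpaired irradiated array is the lowest of its group for Retnla, Chil3, Chil4, Il4ra and Mgl2.

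Levels are given as log2 of the processed spot intensity after quantile normalization across the arrays, where a difference of 1 is a 2-fold change. They compare arrays for 1 probe and not genes with each other. Differences were tested with limma over 39302 probes with Benjamini-Hochberg adjustment and called at an adjusted p under 0.05. Of these probes, 131 were called, which is 0.333%, and 0 of the 7 genes were. Of all 19698 genes tested, each by its brightest probe, 0.416% were called. At an unadjusted p under 0.05, 2 of the 7 passed (Retnla and Mrc1), against 9.94% of all probes. An exact two-sided permutation test on each gene alone, which cannot go below p = 0.00794 with 4 arrays against 5, gave a p under 0.05 for 1 of the 7, against 9.45% of all probes without a missing value.

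Promoters are shown for the 3 secreted-protein genes, whose levels went up and down together across arrays. Each sequence runs 5′ to 3′ from 250 bases before to 50 bases after the annotated start (RefSeq, GRCm38.p6). Capitals mark any match to TTCNNNNGAA, the spacing that STAT6 is known to prefer, or to TTCNNNGAA, the spacing of other STAT factors. The windows are Retnla at chr16:48842359-48842658 on the plus strand, Chil3 at chr3:106167515-106167814 and Chil4 at chr3:106219430-106219729, the last 2 on the minus strand.
Retnla: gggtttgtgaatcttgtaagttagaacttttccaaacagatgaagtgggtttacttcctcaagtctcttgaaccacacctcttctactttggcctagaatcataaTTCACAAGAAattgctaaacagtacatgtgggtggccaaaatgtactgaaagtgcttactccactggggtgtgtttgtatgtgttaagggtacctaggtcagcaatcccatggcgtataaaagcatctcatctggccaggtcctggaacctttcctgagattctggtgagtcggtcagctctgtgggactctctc
Chil3: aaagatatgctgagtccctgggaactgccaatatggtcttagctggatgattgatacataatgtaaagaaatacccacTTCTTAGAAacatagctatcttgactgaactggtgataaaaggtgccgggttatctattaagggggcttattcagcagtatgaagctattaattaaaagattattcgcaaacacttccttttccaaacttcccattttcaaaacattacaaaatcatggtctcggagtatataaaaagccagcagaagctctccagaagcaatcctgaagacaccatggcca
Chil4: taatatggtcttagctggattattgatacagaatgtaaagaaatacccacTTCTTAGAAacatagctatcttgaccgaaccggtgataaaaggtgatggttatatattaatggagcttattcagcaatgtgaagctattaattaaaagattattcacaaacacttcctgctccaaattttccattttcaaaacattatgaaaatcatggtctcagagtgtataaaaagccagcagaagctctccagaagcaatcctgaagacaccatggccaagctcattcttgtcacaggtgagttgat

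The Retnla window holds 1 match to TTCNNNNGAA, which begins 145 bases before the start. TTCNNNGAA is found once in the Chil3 window, 172 bases before the start, and once in the Chil4 window, 200 bases before it, with the same letters in both. Both motifs read the same on either strand, and a match describes the letters only. Of 32851 windows of this length, 6.95% hold TTCNNNNGAA and 8.30% hold TTCNNNGAA. All 7 members have a window in the table, and 1 and 2 of them hold these motifs. The Chil3 and Chil4 windows are close copies, since 251 of 272 aligned columns were identical (92.3%). The 2 genes are close paralogs, so part of the signal of either probe may come from the other transcript, and this was not tested.

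Il4ra encodes the receptor chain shared by IL-4 and IL-13. Its log2 intensity was 10.97, 10.63, 10.26 and 10.78 on control arrays 1 to 4. On irradiated arrays 1 to 5 it was 10.54, 11.22, 10.94, 10.79 and 10.97. The highest array was irradiated and the lowest was control, and the others were interleaved. The difference was 0.23 (SE 0.17, limma adjusted p = 0.747, exact permutation p = 0.254). A dimmer second probe of the gene lay between 7.38 and 8.09 on control arrays and between 7.97 and 8.29 on irradiated arrays. By that probe 4 of the 5 irradiated arrays were above all control arrays, and the difference was 0.37 (SE 0.17, limma adjusted p = 0.499, exact permutation p = 0.0317).

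Retnla encodes the resistin-like protein known as FIZZ1, which alternatively activated macrophages and airway epithelium secrete. It was bright on all arrays, at 17.27, 17.41, 15.31 and 14.76 on control arrays 1 to 4. Irradiated arrays 1 to 5 gave 16.80, 18.13, 17.62, 17.43 and 17.57. The control arrays split into a high and a low pair. Irradiated arrays 2 to 5 were above every control array, though array 4 only just, and irradiated array 1 lay between the 2 control pairs. Between the lowest and the highest control array Retnla differed 6.24-fold, and its control SD of 1.35 was larger than that of 98.2% of the genes tested. The difference between groups was 1.32 (SE 0.54, limma adjusted p = 0.432, exact permutation p = 0.0635).

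Chil3 encodes the chitinase-like protein known as Ym1, a secreted lectin without chitinase activity. Its values were 18.07, 17.52, 16.43 and 16.37 on control arrays 1 to 4 and 17.07, 18.18, 17.98, 17.94 and 17.71 on irradiated arrays 1 to 5. The same control arrays 3 and 4 were low, control array 1 was above 4 of the 5 irradiated arrays, and irradiated array 1 was the lowest of its group. The difference was 0.68 (SE 0.36, limma adjusted p = 0.604, exact permutation p = 0.159).

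Chil4, its neighbor on chromosome 3, encodes the related protein Ym2. It measured 11.44, 10.68, 10.10 and 9.20 on control arrays 1 to 4, and 9.68, 11.57, 11.21, 12.10 and 12.15 on irradiated arrays 1 to 5. Control array 4 was the lowest of all and irradiated array 1 came next, whereas irradiated arrays 2, 4 and 5 were above every control array. The difference was 0.98 (SE 0.56, limma adjusted p = 0.635, exact permutation p = 0.167). Among control arrays Chil4 spanned 4.72-fold and Chil3 3.26-fold, both wider than their mean differences between groups.

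Mrc1 encodes CD206, a mannose receptor that takes up glycoproteins and is used as a surface marker of the state. Control arrays 1 to 4 gave 12.76, 12.48, 12.30 and 12.28. Irradiated arrays 1 to 5 gave 13.01, 13.03, 13.15, 13.15 and 12.89. The lowest irradiated array was above the highest control array, and irradiated array 1 stood with its group. Groups that do not overlap in this direction were found for 2.51% of all probes, and for 1 of the 7 genes. The opposite order, every irradiated array below every control array, was found for 1.65% of probes and 0 of the 7 genes. Either order was found for 4.16% of probes and for 5.15% of genes taken by their brightest probe. The difference was 0.60 (SE 0.11, limma adjusted p = 0.0652). The exact permutation test gave p = 0.00794, the smallest it can give. Mrc1 ranked 205 among the 39302 probes by limma p, outside the 131 called.

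Mgl2 encodes a galactose-binding lectin, also called CD301b, of macrophages and dendritic cells. It was at 16.53, 16.78, 16.56 and 16.46 on control arrays 1 to 4, and at 15.86, 16.56, 16.80, 16.69 and 16.56 on irradiated arrays 1 to 5. All arrays but irradiated array 1 lay within the narrow range from 16.46 to 16.80. The difference of −0.09 had an interval from −0.48 to 0.30 (limma adjusted p = 0.941, exact permutation p = 0.857), and it changed sign without irradiated array 1, to 0.07.

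Cd163 encodes the scavenger receptor for haptoglobin and hemoglobin. Its probe was dim, with 5.32, 1.92, 4.72 and 4.52 on control arrays 1 to 4 and 4.51, 4.50, 3.43, 3.35 and 2.07 on irradiated arrays 1 to 5. It was well above background on 3 of the 4 control arrays and on 1 of the 5 irradiated arrays. The difference was −0.55 (SE 0.72, limma adjusted p = 0.890, exact permutation p = 0.492), and at these signals no direction can be read.

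**Figure D2:**
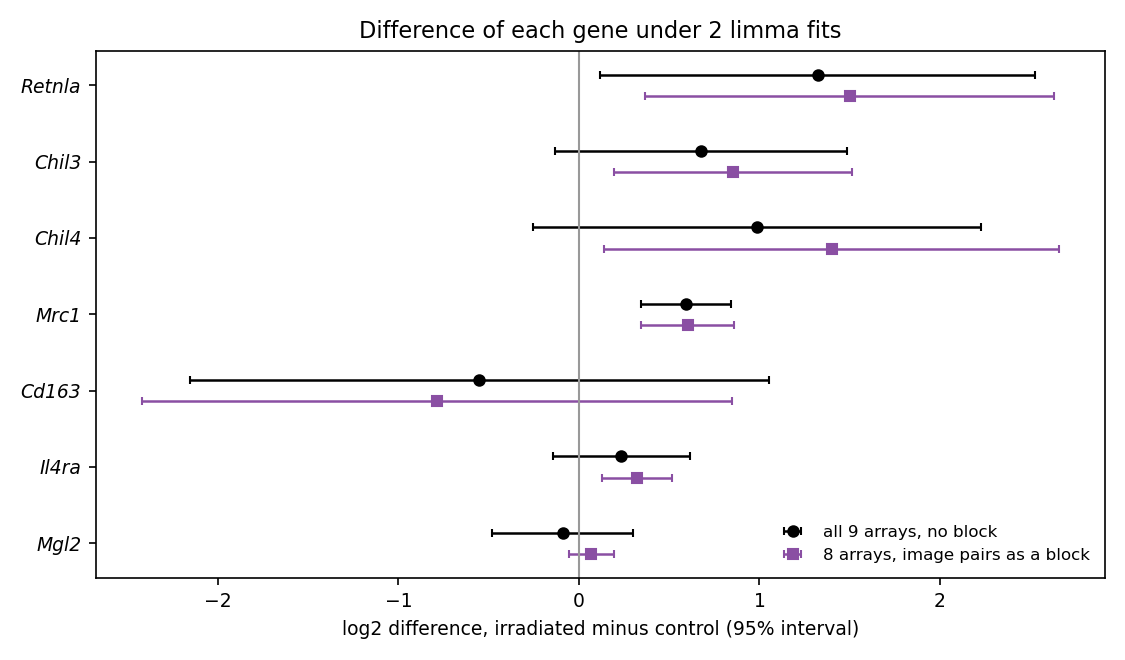
Log2 difference of each gene, irradiated minus control, with its 95% interval. Circles are the limma fit to all 9 arrays and squares the fit to 8 arrays with the image pairs as a block. Intervals are narrower in the second fit for Retnla, Chil3, Il4ra and Mgl2, and the Mrc1 estimate stays near 0.60 in both.

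The scanner files hold no slide or scan date, but they place 8 of the arrays in 4 pairs of 1 control and 1 irradiated array with nearly the same spot position and local background. These image pairs were control 1 with irradiated 2, control 2 with irradiated 3, control 3 with irradiated 4, and control 4 with irradiated 5. Irradiated array 1 had no partner. All genes but Cd163 were higher in the irradiated array of all 4 pairs, 6 of 7, a pattern seen for 14.7% of all probes.

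The differences within pairs were even for some genes and uneven for others. Mrc1 differed by 0.28, 0.68, 0.86 and 0.61. It was steady compared with Retnla, at 0.86, 0.22, 2.11 and 2.81, and Chil4, at 0.13, 0.53, 2.00 and 2.94. Chil3 gave 0.10, 0.46, 1.50 and 1.35. For these 3 secreted-protein genes the larger differences were in the pairs of control arrays 3 and 4, where the control level was low. For Chil4 the irradiated arrays of those pairs, 4 and 5, were also its highest (12.10 and 12.15). Il4ra differed by 0.19 to 0.53, Mgl2 by 0.02 to 0.13, and Cd163 by −2.45 to 1.51 with 1 pair of 4 higher.

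With the pairs as a fixed block, which leaves out irradiated array 1, limma called 2.8% of probes in either direction, 1.54% of probes as higher, and 0 of the 7 genes. At an unadjusted p under 0.05, 5 of the 7 passed in this fit, against 20.9% of all probes. Mrc1 had an adjusted p of 0.0531 (0.60, SE 0.10). With the pairs as a random block over all 9 arrays, limma called 7.37% of probes, 4.09% as higher, and 1 of the 7 genes. This was Mrc1, which was higher (0.60, SE 0.08, adjusted p = 0.00458). Retnla missed the threshold in both (adjusted p = 0.150 and 0.0603), as did Chil3 (0.156 and 0.101), Chil4 (0.202 and 0.136) and Il4ra (0.0971 and 0.134).

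**Figure D3:**
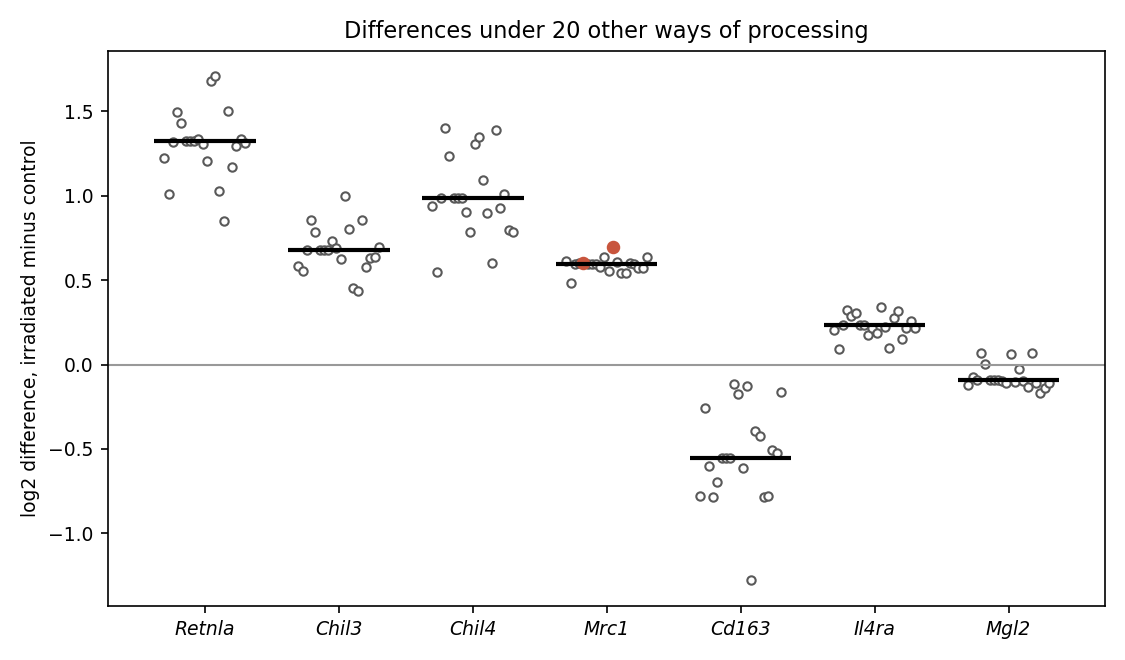
Log2 difference of each gene, irradiated minus control, under 20 other ways of processing, one point each, with a bar at the difference over all 9 arrays without a block. Filled points had an adjusted p under 0.05, which were 2, both for Mrc1. Of the 7 genes, Mgl2 is the one with points on both sides of 0.

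Under 20 other ways of processing the difference stayed positive for Retnla (0.85 to 1.71), Chil3 (0.44 to 1.00), Chil4 (0.55 to 1.4), Mrc1 (0.48 to 0.70) and Il4ra (0.09 to 0.34). The Mrc1 difference moved least of these relative to its size. Mrc1 was also called when control array 1 was left out (0.70, limma adjusted p = 0.0474, with 0.117% of probes called). Control array 1 had the highest Mrc1 level of its group.

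Levels of the secreted-protein genes followed each other from array to array, though not these genes alone. Across the 9 arrays, which share groups and image pairs, Retnla and Chil3 had a Pearson r of 0.95 (Spearman rho 0.82), which was 0.93 after each group's mean was removed and 0.77 without control arrays 3 and 4. For Chil3 and Chil4 r was 0.85 (rho 0.72, and 0.81 within groups), and for Retnla and Chil4 it was 0.80 (rho 0.77, and 0.72 within groups). Mrc1 had an r of 0.79 with Retnla and 0.77 with Chil3 (rho 0.78 and 0.68, and 0.67 and 0.81 within groups). Without control arrays 3 and 4 the r values over the remaining arrays were 0.16 and 0.23, so these r values of Mrc1 rest on control arrays 3 and 4. Il4ra had an r of 0.76 with Chil3 (rho 0.85, and 0.69 within groups), which was 0.53 without control array 3 and irradiated array 2. With Retnla and Chil4 the r of Il4ra was 0.64 and 0.60, and 0.52 and 0.50 within groups. Mgl2 had an r of 0.25 with Retnla, 0.37 with Chil3 and 0.51 with Chil4, which were 0.45, 0.54 and 0.69 within groups. Spearman rho for the same pairs of genes was 0.48, 0.23 and 0.35. Without irradiated arrays 1 and 3 the r values were 0.48, 0.34 and 0.33. These are 21 pairs of genes in all, given as a description, and the arrays left out differ between them.

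**Figure D4:**
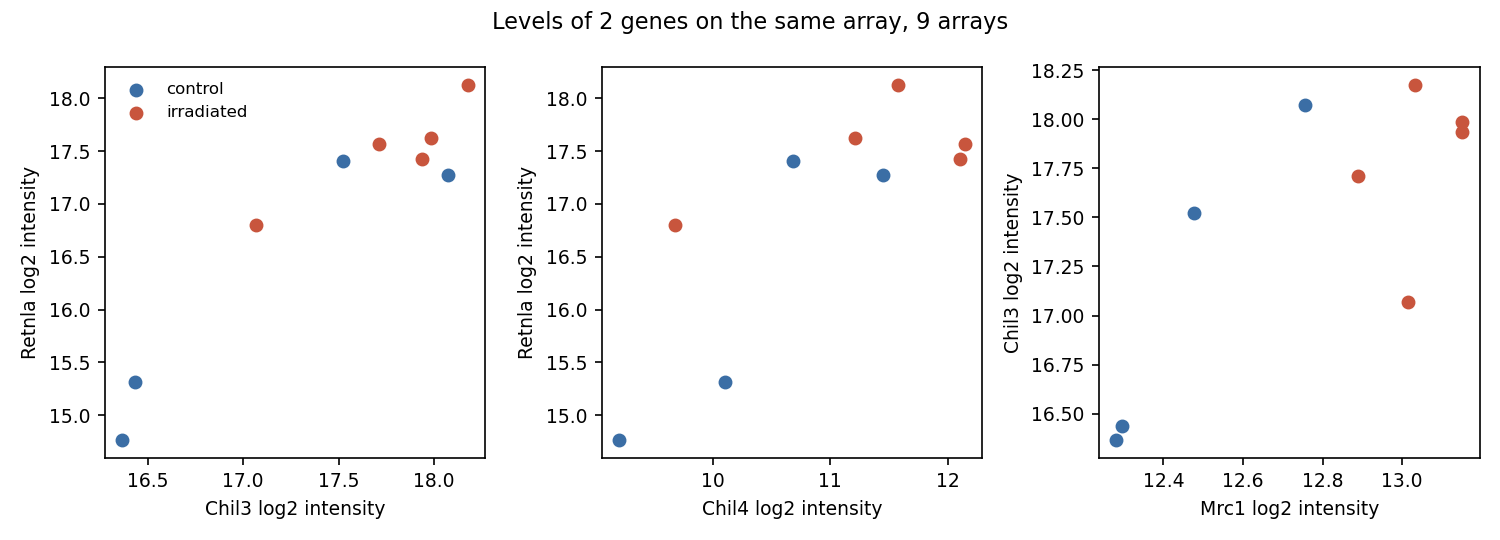
Log2 intensity of Retnla against Chil3, Retnla against Chil4, and Chil3 against Mrc1, one point per array (9 arrays). Control arrays 3 and 4 are the lowest for Retnla, Chil3 and Mrc1, and irradiated array 1 is the lowest irradiated point for Retnla, Chil3 and Chil4.

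Among 15227 other genes well above background on all arrays, those whose pattern over the 9 arrays was most like a member's were found by Pearson r. They were AA467197 (0.966) and F7 (0.956) for Retnla and Fbp1 (0.979) and Sdc4 (0.979) for Chil3. For Chil4 they were Itih4 (0.897) and Aoah (0.896). Mrc1 was most like Anxa2 (0.981) and Mmp19 (0.968), Il4ra like Kcnn4 (0.956) and Csf2ra (0.951), and Mgl2 like Pcdh19 (0.968) and Hspb7 (0.957). The nearest to the dim Cd163 were Mpp5 (0.948) and Ang4 (0.948).

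The members were set beside lists of genes of the same pathway. The median log2 difference was 0.60 over the 7 members, chosen with earlier results known, and 0.01 over all 19698 genes tested. Of 8 type 2 cytokines and alarmins, 0 were called and 2 had an unadjusted p under 0.05, with a median difference of 0.25. Il13, an inducer of the state, was not well above background on any control array and was so on 3 of the 5 irradiated arrays. Its irradiated mean, which includes 2 arrays not well above background, was 1.403-fold above the mean limit of the control arrays (limma adjusted p = 0.323). The limit of an array is its lowest signal well above background. Control limits ran from 2.69 to 5.11 in log2, and the irradiated mean of Il13, 4.51, lay below the highest of them. Il33, an epithelial alarmin that drives type 2 responses, was bright and 0.66 higher (SE 0.21, adjusted p = 0.292 by limma).

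Of the 15 type 2 receptor and signaling genes, 0 were called by limma and 0 had an unadjusted p under 0.05, with a median difference of 0.03. Il1rl1, the IL-33 receptor, was 0.55 higher (SE 0.31, limma adjusted p = 0.641), and Stat3, a transcription factor, was 0.20 higher (SE 0.14, limma adjusted p = 0.737). Of these receptor and signaling genes 8 were higher and 7 lower, among them the decoy receptor Il13ra2 at −0.22 (SE 0.42, limma adjusted p = 0.940) and the kinase gene Jak1 at −0.03 (SE 0.12, limma adjusted p = 0.977). Of 24 measured genes of 26 other known targets of alternative activation, 0 were called and 8 had an unadjusted p under 0.05, 7 of them higher, with a median of 0.32. The elastase Mmp12 of macrophages differed by 2.63 (SE 0.54, limma adjusted p = 0.0861), and the transglutaminase Tgm2 by 0.36 (SE 0.08, limma adjusted p = 0.112). Alox15, a lipoxygenase, differed by −0.66 (SE 0.64, limma adjusted p = 0.830).

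Relatives of the secreted members did not move as one. Of the 8 other chitinase and resistin-like family genes, 0 were called by limma, 2 had an unadjusted p under 0.05, and the median difference was −0.19. Retnlb, a resistin-like protein of mucosal epithelium, was well above background on 0 of 4 control and 4 of 5 irradiated arrays. Its irradiated mean, which includes 1 array not well above background, was 2.67-fold above the mean limit of the control arrays, with a limma adjusted p of 0.0686. Retn itself, resistin, an adipocyte hormone in mice, differed by −2.17 (SE 0.54, limma adjusted p = 0.155). All 8 adipocyte markers were also lower in irradiated arrays, with the level of the list between −0.48 and 0.32 on control and between −2.63 and −0.03 on irradiated arrays relative to the control mean. Their part in the Retn result was not tested.

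In metabolism, 0 of 12 measured genes of arginine and polyamine metabolism were called by limma and 3 had an unadjusted p under 0.05, with a median of 0.20. Beside Cd163, 0 of 11 hemoglobin scavenging genes were called and 3 had an unadjusted p under 0.05. Hpx, which binds heme, was 0.67 higher (SE 0.20, limma adjusted p = 0.250) and Hmox1, which breaks heme down, differed by −0.25 (SE 0.61, limma adjusted p = 0.689). For the opposite state, classical activation, 0 of 18 measured genes were called and 3 had an unadjusted p under 0.05. Their median was 0.34, and Il6, an inflammatory cytokine, differed by 2.53 (SE 0.66, limma adjusted p = 0.178).

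**Figure D5:**
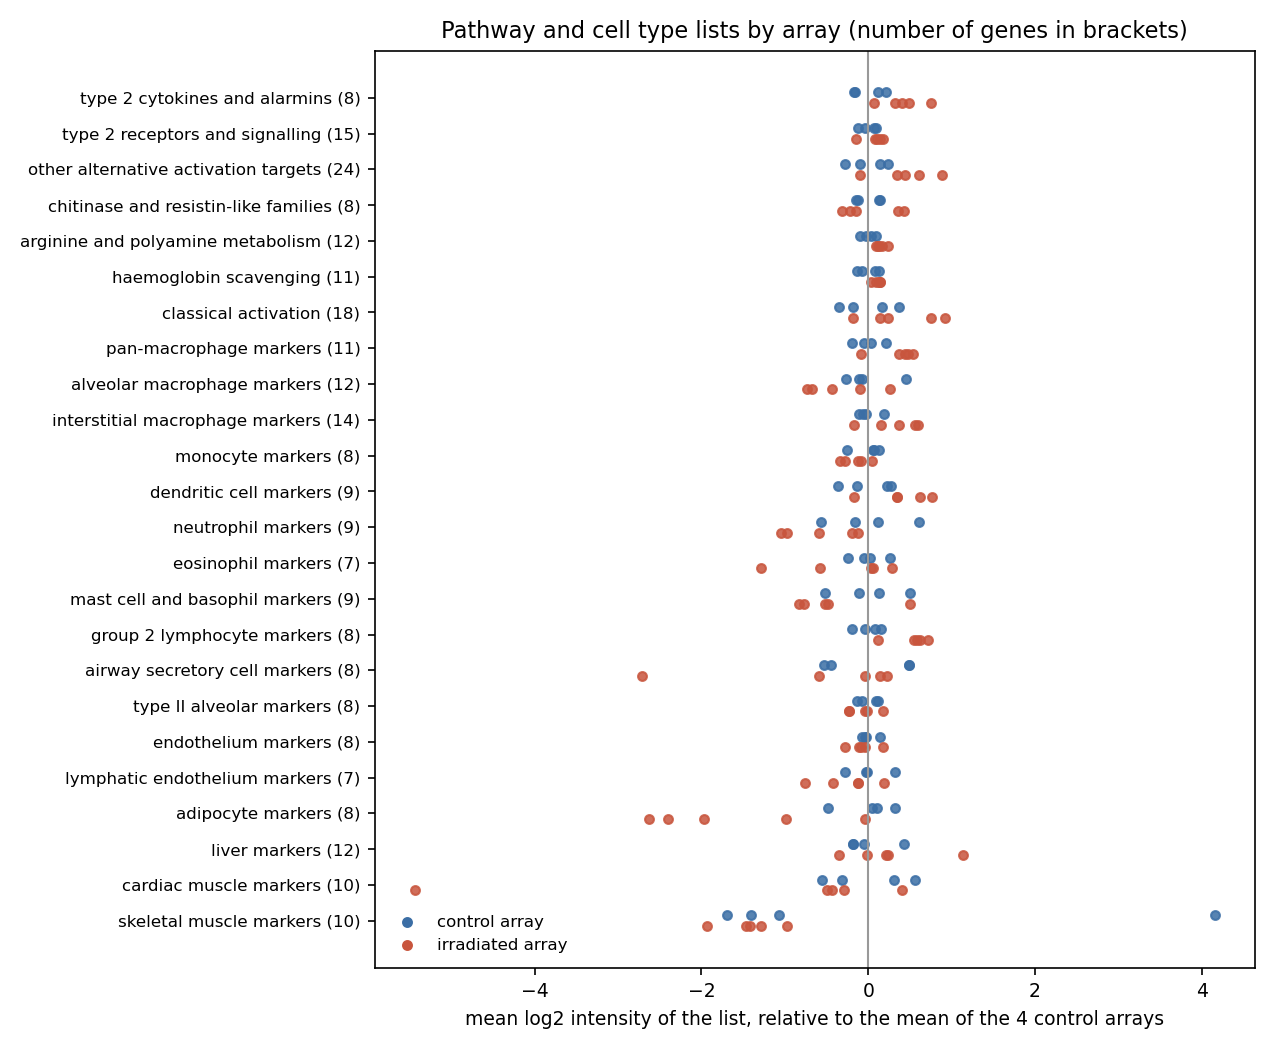
Mean log2 intensity of each pathway or cell type list on each array, after subtracting the control mean, with control arrays in blue and irradiated arrays in red. The number of genes measured stands in brackets. Irradiated array 1 is apart for airway secretory (−2.71) and cardiac muscle (−5.43) markers and control array 3 for skeletal muscle markers (4.16).

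Among marker lists of cell types, all 11 measured pan-macrophage markers were well above background on every array. By limma 0 were called, 6 had an unadjusted p under 0.05 (5 higher and 1 lower), and 10 of 11 were higher in irradiated arrays, with a median of 0.42. The level of the list ranged from −0.19 to 0.21 on control arrays and from −0.09 to 0.54 on irradiated arrays, and irradiated array 1 was the lowest of its group, as for most of the members. Adgre1, which encodes F4/80, was 0.72 higher (SE 0.17, limma adjusted p = 0.138), and the integrin gene Itgam differed by −0.51 (SE 0.17, limma adjusted p = 0.288). The part of macrophage number in the levels of the members was not tested.

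Of 12 alveolar macrophage markers, 8 were lower in irradiated arrays (median −0.32, 0 called by limma). Of the 6 with an unadjusted p under 0.05, 3 were higher (Atp6v0d2, Itgax and Plet1) and 3 lower (Krt79, Fabp1 and Cidec), and Cidec is on the adipocyte list too. Of these, Itgax, Plet1, Krt79 and Cidec were named after their values were seen. The list lay between −0.26 and 0.45 on control arrays and between −0.73 and 0.26 on irradiated arrays. Of 14 interstitial macrophage markers, 9 were higher (median 0.17, 0 called and 5 with an unadjusted p under 0.05, 4 of them higher), with control arrays between −0.11 and 0.20 and irradiated arrays between −0.17 and 0.59. Dendritic cells carry Mgl2 as well, and 7 of 9 measured markers of theirs were higher (median 0.36, 0 called by limma, 2 with an unadjusted p under 0.05). Monocyte markers, a list that holds Chil3 itself, had a median of −0.12 over 8 measured genes, and neutrophil markers a median of −0.60 over 9, with 0 called and 2 with an unadjusted p under 0.05 in each.

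Group 2 lymphocytes are a source of IL-13. Of 8 of their markers 6 were higher and 2 lower (median 0.32, 2 with an unadjusted p under 0.05). The list lay between −0.20 and 0.15 on control arrays and between 0.11 and 0.72 on irradiated arrays. By limma 1 of the 8 was called, against 0.333% of all probes and 0.416% of genes. This was Areg, a growth factor of the EGF family that many cell types make, which rose by 2.63 (SE 0.24, limma adjusted p = 0.00668). The level of the list includes Areg, and its other genes differed by only −0.15 (Gata3) to 0.55 (Il1rl1). Airway secretory cells can express Chil4 and Retnla in inflamed lung. The level of their 8 measured markers was −2.71 relative to the control mean on irradiated array 1. The other irradiated arrays were between −0.59 and 0.22 and the control arrays between −0.52 and 0.49. Irradiated array 1 was also the lowest irradiated array for Chil4 and Retnla, and the part of airway cells in this was not tested. The airway list did not move as one. Its 2 brightest genes, Scgb1a1 and Cyp2f2, lay at 19.08 to 19.17 and 17.52 to 18.09 on all irradiated arrays. On control arrays they lay at 19.14 to 19.19 and 18.28 to 18.40. Bpifa1, with the largest fall, lay at 10.09 to 15.58 on irradiated and 15.47 to 17.80 on control arrays. Without irradiated array 1, 0 of the 7 members were called by limma, against 1.23% of probes, and 4 had an unadjusted p under 0.05, against 10.9% of probes. Without it and control array 3 together, a choice made after the data were seen, 0 of the 7 were called, against 0.371% of probes, and 2 had an unadjusted p under 0.05, against 10.2% of probes.

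Of the other cell lists, limma called 0 genes in each, and 0 to 6 genes of a list had an unadjusted p under 0.05, the most among adipocyte markers. The median difference was −0.24 over 7 eosinophil, −0.56 over 9 mast cell and basophil, −0.41 over 8 airway secretory, −0.02 over 8 type II alveolar, −0.09 over 8 endothelium and −0.35 over 7 lymphatic endothelium markers. It was −1.67 over 8 adipocyte, 0.24 over 12 liver, −1.13 over 10 cardiac muscle and −1.40 over 10 skeletal muscle markers. Single arrays carried both muscle values. The cardiac list was at −5.43 on irradiated array 1 and between −0.49 and 0.41 on the other irradiated arrays. The skeletal list was at 4.16 on control array 3, between −1.69 and −1.06 on the other control arrays and between −1.94 and −0.98 on irradiated arrays.

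Across arrays, 72.8% to 89.1% of spots were well above background and none was saturated. Pairwise correlations between arrays were 0.975 to 0.990. Lung markers were present, with the surfactant gene Sftpc at a mean log2 intensity of 19.40 in both groups. Its lowest and highest values were also the same in both (19.36 and 19.43). Quantile normalization gives all arrays the same set of values, so these equal means do not compare lung content. The number of arrays limits the precision.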

How the data were processed

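For each one-color array the authors deposited the intensity values of Agilent's Feature Extraction software, and for the series a table of normalized intensity values. The background-corrected processed signal was used, without control and outlier spots. A probe was kept where its signal exceeded 1.4 times local background on 4 or more arrays (39302 of 39429). After log2 transformation, quantile normalization and averaging of spots, limma 3.58.1 (R 4.3.3) was fitted with an intensity-dependent variance trend, no covariate and Benjamini-Hochberg adjustment, at an adjusted p under 0.05, and was tested on simulated data. Single genes also had an exact two-sided permutation test over 126 regroupings. Marks for spots well above background and saturation are used as deposited.

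RefSeq tables of GRCm38.p6 gave a symbol to 26055 probes by accession and, matched by symbol, the promoter windows with their coordinates. Each gene was represented by its brightest probe. One further gene of the set and a list gene are not reported here. The members, the 24 other lists, the naming rule and the image pairs were chosen with earlier results of these data known. From a pathway list, genes past the threshold, the 2 brightest and those with the largest rise and fall could be named, and some of these are given. Image pairs are arrays whose first spot row lay within 4 position units and whose median local background lay within 2 intensity units. Deviations from group means correlated at 0.201 to 0.455 within image pairs and at −0.167 to 0.0622 between arrays of the same replicate number, so the numbers were not taken as pairing. For a probe not well above background on any control array, the lowest signal well above background on each array was taken as its limit.

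The authors' table was matched by spot position and used as an alternative. The other alternatives were normexp with an offset of 50 on median signals, scaling to the 75th percentile, other background filters, leaving out arrays, blocks by replicate number or image pair, no variance trend, and averaging the probes of a gene. No dose, region or time was assigned to an array.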

Additional observations from a re-analysis of the deposited data

Results flagged for a closer look

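The level of Mgl2 on irradiated array 1 was far from the rest of its group. Its log2 intensity was 15.86, against 16.56 to 16.80 on the other irradiated arrays, and the gap made up 0.745 of the range of the group. The test for a single distant array was run on 14 groups of values, the 7 genes in each of 2 groups, and chance marks about 1 group in 20.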

How the results depend on the processing

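Retnla, Chil3, Chil4, Mrc1 and Il4ra kept the direction of their difference under all 20 alternatives. For Mgl2 the difference of −0.0903 became 0.0688 with the image pair block, 0.00597 with image pairs as a random block and 0.0624 without control 3 and irradiated 1 together, the last an alternative chosen after seeing the data. It ranged from −0.167 to 0.0684 when each array was left out in turn, the last without irradiated array 1, and the cause was not tested. The number of members called, 0 at first, was 0 with the image pair block, 1 with image pairs as a random block and 0 to 1 when each array was left out in turn. Probes called, 131 at first (75 higher, 56 lower), were 199 with the background filter on all 9 arrays, 44 with the authors' normalized table (11 higher, 33 lower), 44 without the intensity trend, 1099 with the image pair block and 2898 with image pairs as a random block. Scaling to the 75th percentile gave 52 higher and 72 lower. Leaving out control arrays 1 to 4 in turn gave 46, 11, 5 and 8 probes, and leaving out irradiated arrays 1 to 5 gave 483, 14, 6, 21 and 24, so each array changed this count by over 1.5 times. List genes called, 1 of 248 at first, were 2 with the 75th percentile, 5 with the filter on all 9 arrays, 29 with the image pair block, 57 with image pairs as a random block, 4 without control 3 and irradiated 1, and 1 to 17 when each array was left out in turn. With the replicate number as a block, 1 probe, 0 list genes and 0 members were called by limma, 3267 probes and 2 members had an unadjusted p under 0.05, and Mrc1 had a difference of 0.64 (adjusted p = 0.339). The replicate numbers are not known to pair the arrays. For Cd163 the signal over background limits any statement.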
